A study of Mus musculus with 4 samples.

Results

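The genes described here encode the proteins of the cytosolic ribosome, here read in synovium (the lining of joints) of mice with and without serum transfer arthritis. They were chosen by name: symbols that begin with Rpl (large subunit) or Rps (small subunit) followed by a number, together with Rplp0, Rplp1, Rplp2 and Rpsa, without the Rps6k kinases and without pseudogene symbols ending in -ps. This gave 69 genes of the 22180 measured, 42 of the large and 27 of the small subunit. Of the 69, 58 are core ribosomal proteins and 11 are not: 6 are paralogues (Rpl3l, Rpl7l1, Rpl10l, Rpl22l1, Rpl39l and Rps27l), Rpl6l, Rpl32l and Rps4l are copies of ribosomal protein genes, and Rps19bp1 and Rps23rg1 carry the name but are not ribosome subunits. RefSeq lists Rpl6l and Rps4l as pseudogenes. A further 14 symbols of the family stood only on probe sets that name several genes, and they were not counted as members.

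The 4 arrays came from 2 pools of nonarthritic synovium, each from 3 mice and labelled day 0, and 2 pools of arthritic synovium, each from 10 mice and labelled day 10, the peak of inflammation. The mice were C57BL/6J males, 12 weeks old, and the synovium was taken around the tibiotalar (ankle) joint. Arthritic mice received 3 injections of 150 microlitres of K/BxN serum, on days 0, 2 and 7, and nonarthritic mice received phosphate buffered saline at those times, per the labels' protocols. For the nonarthritic pools, too, a label names K/BxN as the strain the serum came from, which conflicts with the saline. Their day 0 label also conflicts with saline given up to day 7. The groups differ in pool size and labelled day as well as in treatment. The design text calls the pools of a group biological replicates, and with 1 array a pool the p-values below rest on how far pools differ and say nothing of single mice. The comparison asks how the synovium differs between peak inflammation and no arthritis.

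A ribosome joins a small subunit, which reads the messenger RNA, with a large subunit, which forms the peptide bonds and holds the exit tunnel of the new protein. Each protein is needed in about the same amount, and vertebrate cells control most ribosomal protein messages together at the level of translation, through a run of pyrimidines (C or T in the gene) at the very start of the message, the terminal oligopyrimidine tract. The mTOR pathway acts through this tract when cells grow. Mammalian genomes also hold many processed copies of these genes, so a probe set of an array can read more than 1 of them.

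The tract could be looked for in the start regions that RefSeq gives for assembly GRCm38.p6, which held 54 of the 69 genes. Each window ran from 10 bases before the listed start to 20 after it. A run of at least 7 consecutive bases that are each C or T, on the sense strand, was scored anywhere in the window. Such a run need not lie at the very start of the message, and that of Rplp0 lies near the end of its window. Of the 54 genes, 28 (51.9%) had such a run at 1 or more of their listed starts, against 20.5% of the 27025 genes of the table. On the other strand, where the run would be of A or G as read here, 3 of the 54 (5.56%) and 23.4% of all genes had one. The windows below show the range among the genes that the results turn on, in lower case with each run of 7 or more in capitals. Rplp0, Rpl15 and Rpl34 were higher in arthritic synovium and hold a run, Rpsa and Rps15 were higher and hold none in this window, Rps6 and Rpl28 hold a run and were not called, and Rpl3l was lower and holds none.
Rplp0: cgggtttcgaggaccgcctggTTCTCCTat
Rpl15: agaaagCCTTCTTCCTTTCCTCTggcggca
Rpl34: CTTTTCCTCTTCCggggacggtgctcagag
Rpsa: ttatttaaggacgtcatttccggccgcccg
Rps15: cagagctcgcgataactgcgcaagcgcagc
Rps6: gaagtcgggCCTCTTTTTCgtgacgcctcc
Rpl28: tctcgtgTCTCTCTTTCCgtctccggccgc
Rpl3l: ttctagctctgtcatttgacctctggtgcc
These lie at chr5:115559457-115559486 for Rplp0, chr14:18270967-18270996 for Rpl15, chr3:130730318-130730347 for Rpl34, chr9:120127756-120127785 for Rpsa and chr10:80292421-80292450 for Rps15. The windows of Rps6, Rpl28 and Rpl3l are chr4:86857348-86857377, chr7:4792955-4792984 and chr17:24727816-24727845. The sequences of Rpl15, Rpl34 and Rps6 are those of the minus strand and the other 5 those of the plus strand. The longest run was 17 bases in Rpl15 and 10 in Rps6, and where a gene had several listed starts, as Rpl34 and Rpl3l did with 2 each, the window with the longest run is shown.

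Ribosomal protein genes lay modestly higher in arthritic synovium as a family, and 1 muscle-type paralogue fell. Of the 69 genes, 13 rose and 1 fell (limma, Benjamini-Hochberg adjusted p under 0.05 over all genes), which is 18.8% and 1.45% of them, against 8.72% of all genes higher and 6.62% lower. The 13 that rose were Rplp0, Rpl7, Rps19, Rpsa, Rpl15, Rps15, Rpl13, Rps3, Rpl34, Rpl10a, Rpl37a, Rpl32 and Rps27l, with folds from 1.48 to 2.03. The 1 that fell was Rpl3l, which was 3.35-fold lower. The median log2 fold change (arthritic minus nonarthritic, the difference of mean log2 signals) of the 69 genes was 0.41, with quartiles of 0.14 and 0.54, beside a median of 0.005 and quartiles of -0.23 and 0.25 over all genes. Of the 69, 59 (85.5%) had a fold change above 0, as 50.4% of all genes did. Over all genes 1933 were called higher and 1469 lower; with each array centred on its median these were 2314 and 1134, and 16 and 1 of the 69.

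In 48 of the 69 genes both arthritic pools lay above both nonarthritic pools, which held for 30.2% of all genes. In 6 both arthritic pools lay below, as in 26.1% of all genes, and in 15 the groups overlapped. Among the 58 core genes 12 rose, 0 fell (none at an unadjusted limma p under 0.05 either) and the median was 0.41. The calls rest on all 4 arrays: with any 1 pool left out, none of the rises was called by limma. Such a fit leaves 1 pool in a group, and fewer of all genes were called too. At an unadjusted limma p under 0.05, 32 members (46.4%) were higher with all arrays, against 16.4% of all genes. This number was 29 (all genes 14.8%) without the first and 15 (9.95%) without the second nonarthritic pool. It was 26 (10.98%) without the first and 12 (12.1%) without the second arthritic pool, the last being 17.4% of the members. The medians were 0.46, 0.32, 0.46 and 0.30 in that order. When limma was run over all 41345 probe sets in place of 1 probe set a gene, 0 of the 110 probe sets of these genes were called higher, against 1.66% of all probe sets. At an unadjusted limma p under 0.05, 43 of the 110 were higher, against 10.5% of all probe sets. Of the 110, 7 repeat the values of another probe set of the same gene, so the 43 can count the same values more than once. In that fit 1 of the 110, that of Rpl3l, was called lower, against 1.89% of all probe sets.

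**Figure D1:**
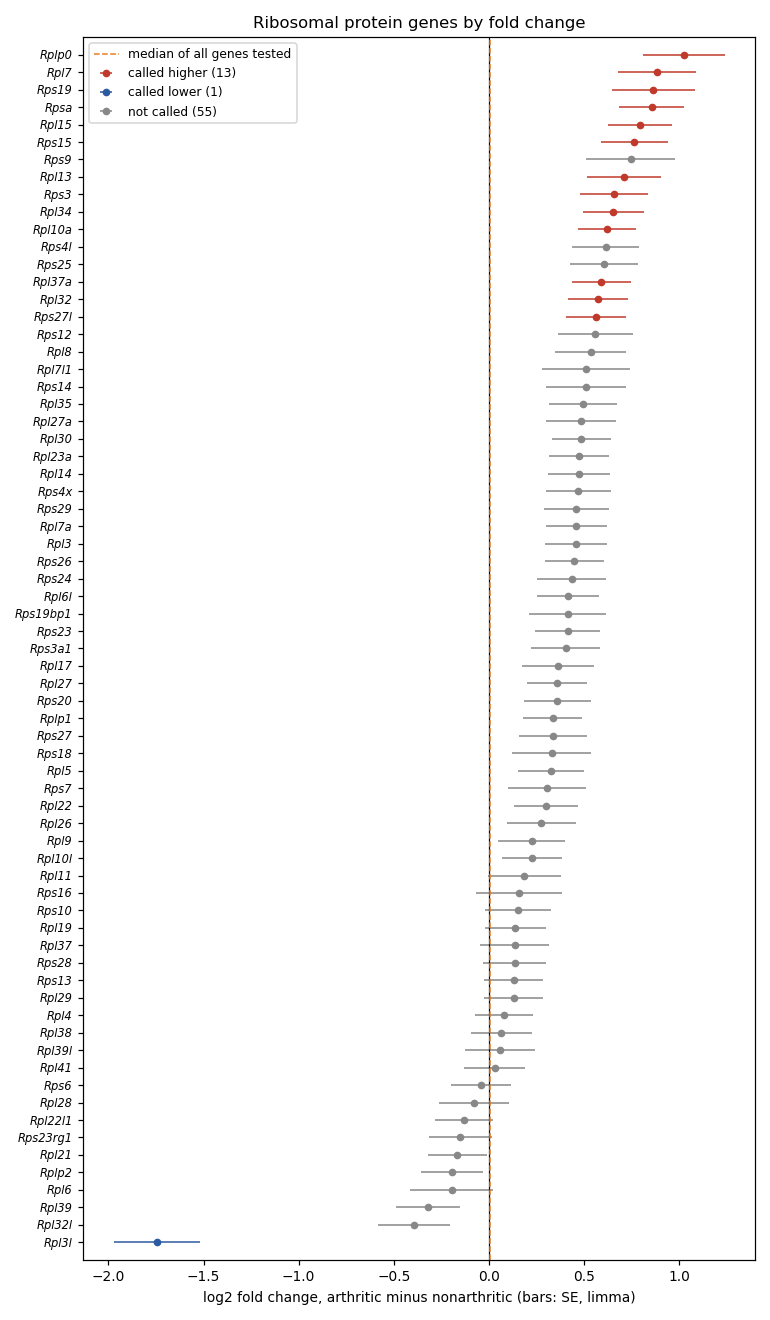
Log2 fold change (arthritic minus nonarthritic, horizontal axis) of the 69 ribosomal protein genes, 1 gene a row, with bars of 1 SE from limma and colours for the call; the dashed line is the median of all genes tested. Of the 69, 59 lie to the right of 0, Rplp0 is highest at 1.02 and Rpl3l lowest at -1.75.

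The large subunit gave 8 of the 13 rises, of 42 genes (19.0%, beside 8.72% of all genes), and the median of its 35 core members was 0.36. The P stalk, a flexible arm of this subunit that recruits the elongation factors, is built on Rplp0. Rplp0 read 11.55 and 11.12 in nonarthritic pools 1 and 2 and 12.15 and 12.57 in arthritic pools 1 and 2, on the log2 signal scale, which all signals below share. Both arthritic pools were the higher ones, and the gap between the groups was wider than that between the pools of either. It rose 2.03-fold, with a log2 fold change of 1.02 ± 0.21 (SE; adjusted p = 0.0161), the largest of the family when each gene is read by its brightest probe set. Its other probe set was at 0.02, and with the probe sets averaged it was at 0.52 and not called. Rplp1 and Rplp2, which dimerise on Rplp0, did not pass. Rplp1 read 12.24 and 12.19, then 12.59 and 12.51 (0.34 ± 0.15 SE, adjusted p = 0.198), and Rplp2 read 6.81 and 6.87, then 6.54 and 6.75 (-0.20 ± 0.16 SE, adjusted p = 0.492). The 3 stalk genes therefore had 1 call among them, and the pools of Rplp2 were ordered the other way.

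Rpl7 binds near the base of the large subunit's central protuberance. It read 9.89 and 9.55 in the nonarthritic pools and 10.39 and 10.82 in the arthritic pools, with no overlap (log2 fold change 0.89 ± 0.21 SE, adjusted p = 0.0243). Rpl15, one of the genes mutated in Diamond-Blackfan anaemia, an inherited failure of red cell production, read 12.15 and 12.07, then 12.77 and 13.04. Its nonarthritic pools were close together and both arthritic pools lay above them (0.80 ± 0.17 SE, adjusted p = 0.0169). Rpl13 read 10.10 and 9.84, then 10.48 and 10.88, and its log2 fold change was 0.71 ± 0.19 SE (adjusted p = 0.0441). Its other probe set was lower in both arthritic pools (-0.36), and the call was lost with the probe sets averaged (0.17) and with quantile normalization again (0.64). Rpl7 was not called either with its probe sets averaged (0.56).

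Rpl10a, a protein of the L1 stalk that guides spent transfer RNA off the ribosome, had the closest pools of the genes that rose. It read 11.59 and 11.61, then 12.21 and 12.23. The pools of a group differed by 0.02 and the groups by 0.62 ± 0.15 SE (adjusted p = 0.0303). Rpl34 read 8.70 and 8.80, then 9.33 and 9.48 (0.66 ± 0.16 SE, adjusted p = 0.0289). Rpl37a read 7.63 and 7.56, then 8.14 and 8.23, and Rpl32 read 12.23 and 12.07, then 12.71 and 12.74, with adjusted p = 0.0388 and 0.0451 from limma. The call of Rpl32 was lost with quantile normalization again (0.51). In all 4 of these genes the arthritic pools were the higher ones without overlap.

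Rpl5 and Rpl11 form with the 5S RNA a particle that, apart from its place in the large subunit, can bind Mdm2 and so stabilise p53. Neither was called. Rpl5 read 7.23 and 6.91, then 7.37 and 7.42 (0.33 ± 0.17 SE, adjusted p = 0.262), and Rpl11 read 6.15 and 5.97, then 6.03 and 6.46, with overlapping groups (0.18 ± 0.19 SE, adjusted p = 0.594). The 95% intervals of their log2 fold changes, -0.07 to 0.72 and -0.26 to 0.63, leave room for a rise as large as that of Rpl10a. Of 7 measured proteins at the exit tunnel (Rpl4, Rpl17, Rpl19, Rpl23a, Rpl26, Rpl35 and Rpl39), 0 were called by limma. Of all genes 8.72% were called higher and 6.62% lower, so few calls could be looked for among 7. Their median was 0.28, with values from -0.32 for Rpl39 to 0.49 for Rpl35. Of the 7, 2 were higher at an unadjusted limma p under 0.05, Rpl23a (0.0165) and Rpl35 (0.0238), beside 16.4% of all genes. Rpl39 read 8.57 in both nonarthritic pools and 8.10 and 8.40 in the arthritic pools (-0.32 ± 0.17 SE, adjusted p = 0.262).

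The small subunit gave 5 of the 13 rises, of 27 genes (18.5%, beside 8.72% of all genes), and 0 fell. The median of its 23 core members was 0.43. Rpsa, which is also known as the laminin receptor and sits on the outer face of the subunit, read 11.32 and 11.27 in nonarthritic and 12.00 and 12.30 in arthritic pools. The nonarthritic pools were 0.05 apart and the groups did not overlap (0.85 ± 0.17 SE, adjusted p = 0.0136, the lowest of the genes that rose). Rps19, the gene most often mutated in Diamond-Blackfan anaemia, read 10.47 and 10.23, then 10.93 and 11.50. Its arthritic pools stood 0.57 apart, and its log2 fold change of 0.86 ± 0.22 SE (adjusted p = 0.0328) was 0.58 without arthritic pool 2 and 1.15 without arthritic pool 1. It was not called with the probe sets averaged (0.65) or with quantile normalization again (0.78).

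Rps15, a protein of the head whose tail reaches toward the decoding site, read 6.46 and 6.75, then 7.47 and 7.27. It is the dimmest gene that rose, and both arthritic pools were the higher ones (0.77 ± 0.18 SE, adjusted p = 0.0237). Rps3, which lies at the entry of the messenger RNA channel and also acts in DNA repair, read 10.66 and 10.33, then 11.07 and 11.24 (0.66 ± 0.18 SE, adjusted p = 0.0429), and its call was lost with quantile normalization again (0.58). Of 11 measured proteins listed for the head and beak of the small subunit, 3 rose (Rps3, Rps15 and Rps19), 0 fell, and the median was 0.46, beside 8.72% of all genes higher. The list as first written also held Rpsa, which is not a head protein, and was then at 4 of 12. Of 14 measured genes listed for Diamond-Blackfan anaemia, 2 rose (Rpl15 and Rps19), 0 fell, and the median was 0.35. The 2 are 14.3% of this short list, near the 8.72% of all genes. For both lists all members had fold changes above 0, as did 52 of the 58 core genes of the family.

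**Figure D2:**
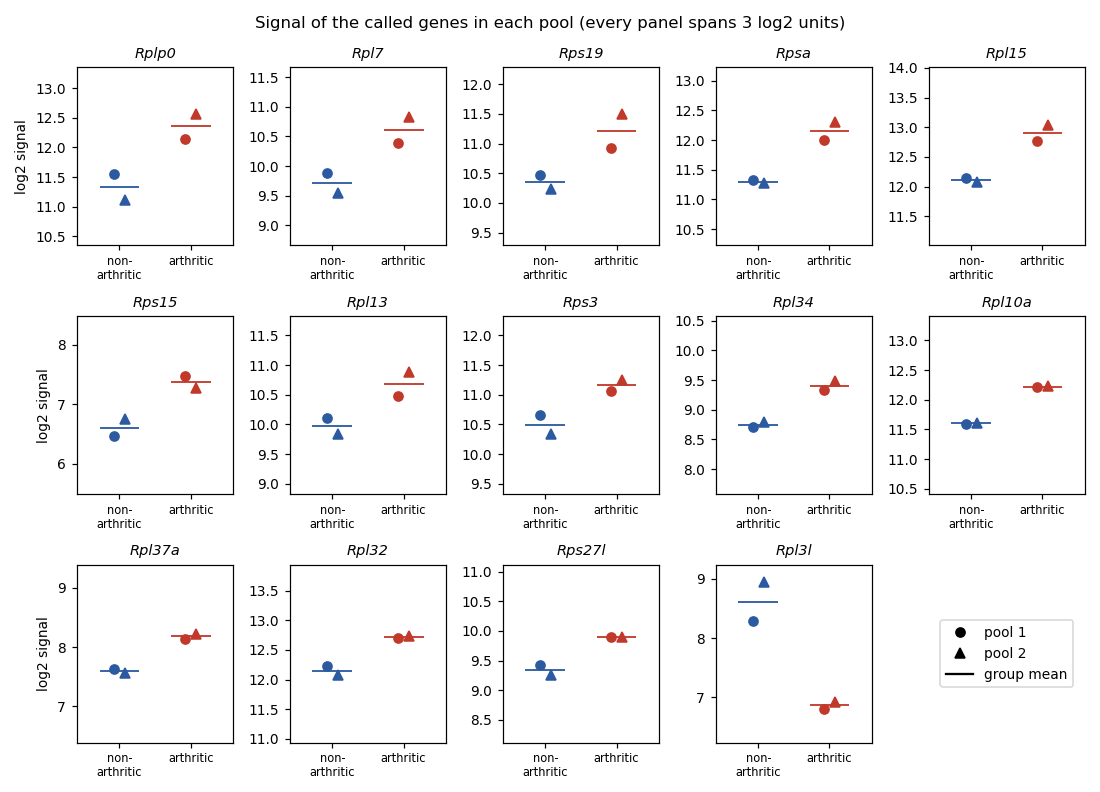
Log2 signal (vertical axes, each spanning 3 log2 units) of the 14 called genes in the 2 nonarthritic (blue) and 2 arthritic (red) pools; circles are pool 1, triangles pool 2 and lines group means. In all 14 panels the groups do not overlap, Rpl10a has the closest pools, and Rpl3l alone is lower in the arthritic pools.

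Some genes whose pools lay far apart were not called. Rps9 read 10.10 and 9.77, then 10.37 and 10.99, so its arthritic pools differed by 0.62 (log2 fold change 0.74 ± 0.23 SE, adjusted p = 0.0695). Rpl7l1 read 9.01 and 9.07, then 9.20 and 9.90, the widest gap of the family at 0.70 (0.51 ± 0.23 SE, adjusted p = 0.193). Rps16, at 7.45 and 6.87, then 7.16 and 7.48, and Rpl6, at 7.07 and 6.81, then 6.46 and 7.03, had pool gaps of 0.58 and 0.57 and overlapping groups. The gaps had a common direction in most genes: nonarthritic pool 1 read above pool 2 in 47 of the 69, and arthritic pool 2 above pool 1 in 51, against 53.9% and 49.7% of all genes. The median gaps were 0.08 between the nonarthritic and 0.15 between the arthritic pools. The 13 genes that rose show the same order in 10 and 11 cases.

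The paralogues gave 1 fall and 1 rise. Rpl3l replaces Rpl3 in the ribosomes of skeletal muscle and heart. It read 8.28 and 8.94 in nonarthritic and 6.80 and 6.93 in arthritic pools, so both arthritic pools were far below both others. Its log2 fold change was -1.75 ± 0.23 SE (adjusted p = 0.00213) and ranged from -2.08 to -1.42 with 1 pool left out, and limma called it without nonarthritic pool 1 but not without each of the other pools. Rpl3 itself read 10.83 and 10.98, then 11.28 and 11.45, higher in both arthritic pools but not called (0.46 ± 0.16 SE, adjusted p = 0.102). The difference between the changes of Rpl3l and Rpl3 was not tested.

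Markers of skeletal muscle moved with Rpl3l. All 16 fixed muscle genes fell, with a median of -2.84 and a mean log2 signal of 11.1 and 11.5 in nonarthritic pools 1 and 2 and of 8.62 and 8.14 in arthritic pools 1 and 2. Among them Acta1, skeletal muscle actin, went from 12.30 and 12.68 to 10.48 and 9.84, and Tnnt3, fast troponin T, from 12.59 and 12.92 to 9.85 and 9.30. Of the 2 pools of each group, nonarthritic pool 2 was the higher in Rpl3l and in the muscle mean, whereas the arthritic pools had opposite orders in both. The elongation factor paralogue Eef1a2, which muscle and nerve use, fell as well, from 10.16 and 10.06 to 8.32 and 8.06 (-1.92 ± 0.17 SE, adjusted p = 0.000418), while Eef1a1, the form of most tissues, was at 0.005 ± 0.16 SE (adjusted p = 0.988). The part of muscle content in these values was not tested, and in pooled tissue fewer muscle cells and less of the RNA per muscle cell cannot be told apart.

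Rps27l, a p53-induced relative of Rps27, rose. It read 9.42 and 9.25, then 9.90 in both arthritic pools (0.56 ± 0.16 SE, adjusted p = 0.0486). Rps27 read 7.84 and 7.99, then 8.08 and 8.42 (0.34 ± 0.18 SE, adjusted p = 0.264), so both members of the pair were higher in both arthritic pools and 1 passed. Rpl22l1, at 5.69 and 5.77, then 5.62 and 5.58, and its parent Rpl22, at 7.55 and 7.27, then 7.74 and 7.68, had log2 fold changes of -0.13 and 0.30 and neither was called. Rpl39l, a paralogue of the exit tunnel protein Rpl39 known from testis, was at 0.06 ± 0.18 SE, and Rpl10l, a testis paralogue of Rpl10, at 0.23 ± 0.16 SE. Rpl10l read 4.43 to 4.77 and Rpl32l 3.80 to 4.42, around or under the median of 4.81 of the olfactory receptor genes on these arrays, so neither was shown to be above background.

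The copies Rps4l and Rpl6l and their parents were not called. Rps4l, listed as a transcribed pseudogene, read 7.80 and 7.63, then 8.48 and 8.18 (0.61 ± 0.18 SE, adjusted p = 0.0514), and Rps4x, the parent on the X chromosome, read 11.94 and 11.85, then 12.22 and 12.51 (0.47 ± 0.17 SE, adjusted p = 0.109). Rpl6l read 11.40 and 11.19, then 11.67 and 11.75, whereas Rpl6 overlapped between the groups, as given above. Rps19bp1, a nucleolar protein that binds Rps19, was at 0.41 ± 0.20 SE (adjusted p = 0.223). The sequences of such copies lie close to those of their parents, and which transcripts their probe sets read was not tested.

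**Figure D3:**
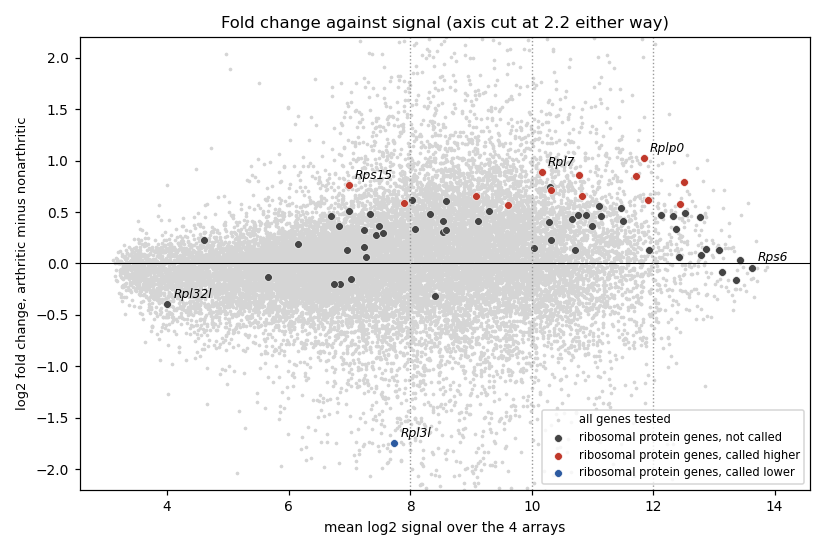
Log2 fold change (vertical axis) against the mean log2 signal over the 4 arrays (horizontal axis) for all genes tested (grey) and the 69 ribosomal protein genes (dark grey, red where called higher, blue where called lower); dotted lines mark signals of 8, 10 and 12. The 21 members between 10 and 12 have a median of 0.47 and hold 7 of the 13 rises, and the 15 members above 12 have a median of 0.14 and hold 2.

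The brightness of the probe set was set beside the fold change. The 69 genes ran in mean signal from Rpl32l to Rps6, at 13.62, with a median of 10.16 against 7.70 for all genes. The 3 brightest members were not called. Rps6, the target of the S6 kinases, read 13.67 and 13.62, then 13.53 and 13.68 (-0.04 ± 0.16 SE, adjusted p = 0.907). Rpl41, which encodes a very short peptide, read 13.42 and 13.40, then 13.35 and 13.53, and Rpl21 read 13.47 and 13.43, then 13.35 and 13.22 (adjusted p = 0.932 and 0.554). The 95% intervals of the log2 fold changes of Rps6, Rpl41 and Rpl21 were -0.40 to 0.32, -0.34 to 0.40 and -0.53 to 0.20.

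The genes were then set in classes of signal, with bounds chosen after the data were seen. The 15 members at 12 and over had a median log2 fold change of 0.14 and 2 rises, Rpl15 and Rpl32, beside a median of 0.06 and 11.1% called higher among the 305 genes of the class. The 21 members from 10 to 12 had a median of 0.47 and 7 rises, beside 0.08 and 14.9% of 2861 genes. The signal is the mean over all 4 arrays, so the class of a gene depends in part on its arthritic signal. Rpl7, Rpl13, Rps9 and Rps10, with nonarthritic means of 9.72, 9.97, 9.935 and 9.965, reached 10 only through the arthritic pools. The 12 members from 8 to 10 had a median of 0.45 and 2 rises, beside 0.11 and 15.0%. The 21 members under 8 had a median of 0.23 and 2 rises, beside -0.04 and 3.64%. In each class the members' median lay above that of all genes in it, by the least in the brightest. When only the 3166 genes with a mean signal of 10 or more were tested, a choice made after the data were seen, 20 of 36 members were called higher, against 24.9% of those genes. Among the 20 are Rpl7, Rpl13 and Rps9, which passed this filter only through their arthritic pools, so the filter is not independent of the rise. The part of the scanner's upper range in the values of the brightest probe sets was not tested.

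The genes had 110 probe sets in all. Of these, 7 repeated the values of another probe set of the same gene on all 4 arrays, in Rps12, Rps19 and Rpl23a, which left 103 with values of their own. Several distinct probe sets were present for 24 genes, and the 34 that were not the brightest had a median log2 fold change of 0.24, beside 0.42 for the brightest of the same genes. Their median signals were 7.53 and 11.4. Of the 34, 27 had a fold change above 0. The brightest probe set had the higher fold change (against the median of the others) in 14 genes and the lower in 10, so the direction of this difference varied among genes.

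In 7 genes a probe set lay more than 0.5 from the brightest. For Rplp0, the dimmer one read 7.44 and 7.43, then 7.25 and 7.65, with a log2 fold change of 0.02, where the brighter gave 1.02. For Rpl13, the dimmer one read 8.10 and 8.32, then 7.84 and 7.85, lower in both arthritic pools (-0.36), where the brighter gave 0.71. The dimmer probe sets of Rpl7 and Rps19 gave 0.23 and 0.22, against 0.89 and 0.86. Rpl3 had 3 probe sets, at 0.46, 0.27 and -0.49 from the brightest to the dimmest, and those of Rps18 gave 0.33, -0.35 and 0.34. In Rpl21 the order was turned: its pair of bright probe sets gave -0.17 and -0.19, and its dim one, at 7.66 and 7.55, then 8.32 and 8.20, gave 0.65. For Rpsa and Rps9 all probe sets were higher in both arthritic pools, at 0.85 and 0.50 and at 0.74 and 0.91.

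When all probe sets of a gene were averaged, limma called 11 members higher, 9 of them among the 13 above. Probe sets that repeat the values of another were counted each time, so repeated values weigh more in the averages of Rps12 and Rps19. Rplp0, Rpl13, Rpl7 and Rps19 dropped out, with log2 fold changes of 0.52, 0.17, 0.56 and 0.65, and Rps12 and Rps9 were added. The rises of Rpl10a, Rpl15, Rpl32, Rpl34, Rpl37a, Rps3, Rps15, Rps27l and Rpsa were called either way. Of these 9, all but Rpsa had 1 distinct probe set, so averaging could change only their adjusted p.

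**Figure D4:**
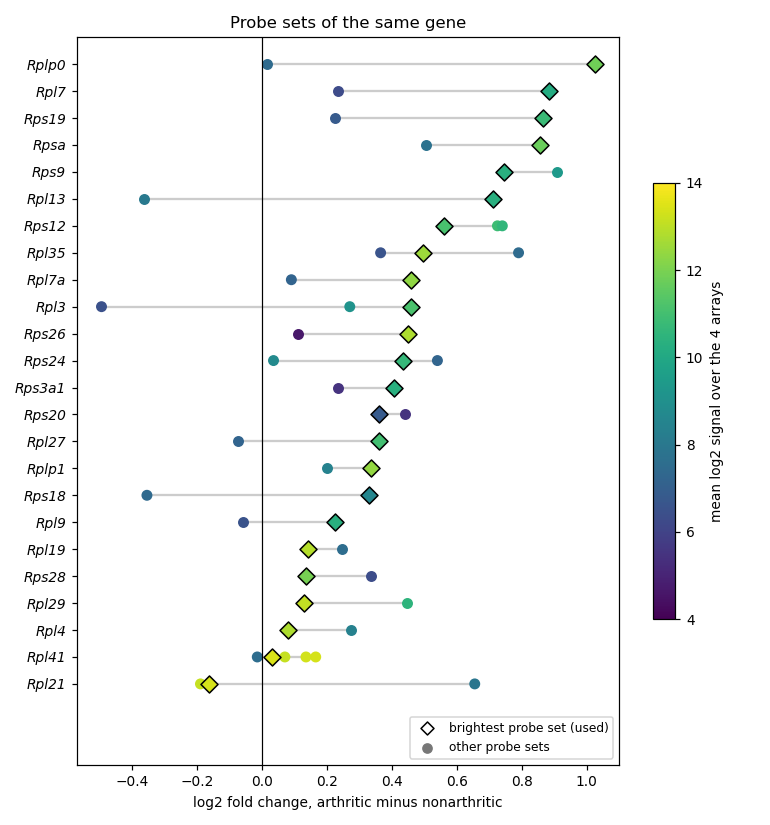
Log2 fold change (horizontal axis) of every distinct probe set of the 24 ribosomal protein genes that had more than 1, ordered by the brightest; diamonds are the brightest probe set, circles the others, and colour is the mean log2 signal. Rplp0 spans 0.02 to 1.02, Rpl13 spans -0.36 to 0.71, and Rpl41 has 5 probe sets within a narrow range.

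The run of pyrimidines in the start window, shown above, was present in some of the genes that rose and not in others. Of the 28 genes with the run 6 rose, and of the 26 without it in this window 5 rose, with medians of 0.39 and 0.31. The other 15 genes, Rpl7 and Rpl32 among them, are not in the table of start regions. Listed starts can lie some bases from the true start, and a window without the run says only that these letters are not in it.

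Genes that build or work with ribosomes were set beside the family. Of 47 measured ribosome biogenesis factors 12 (25.5%) rose and 0 fell, beside 8.72% and 6.62% of all genes, with a median of 0.35. Bop1, which acts with Pes1 in large subunit maturation, rose from 9.58 and 9.25 to 10.44 and 10.73 (1.17 ± 0.19 SE, adjusted p = 0.00538). Nhp2, of the complexes that place pseudouridine in ribosomal RNA, rose by 1.10 and the small subunit factor Bysl by 0.87 on the log2 scale. Without 1 of the pools limma called 1 of the 47 higher (without nonarthritic pool 1) or 0 (without each of the other pools). Of 15 RNA polymerase I genes, whose enzyme makes the ribosomal RNA precursor, 3 rose (beside 8.72% of all genes) and 0 fell, namely Polr1e (0.70), Cd3eap (0.63) and Polr1c (0.62). Their median was also 0.35, but 0.14 without arthritic pool 1, where limma called 1 of them. It called 0 without each of the other pools.

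The mitochondrial ribosome is built from a separate set of nuclear genes. Of its 71 measured proteins 11 rose and 0 fell, and their median was 0.29. The 3 largest rises were Mrpl54, from 8.20 and 7.34 to 9.03 and 9.23 (1.36 ± 0.27 SE, adjusted p = 0.0131), Mrpl36 (0.97) and Mrpl28 (0.96). Without nonarthritic pool 1 limma called 2 of them, and without each of the other pools 0. The cytosolic family, at 13 of 69, and the mitochondrial one, at 11 of 71, thus had calls in the same direction, with shares of 18.8% and 15.5% beside 8.72% of all genes.

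Other genes listed by name as having a terminal oligopyrimidine tract were called at shares near those of all genes. The tract itself was not looked for in these genes. Of 19 measured, 2 (10.5%) rose and 1 (5.26%) fell, with a median of 0.18. The elongation factor subunits Eef1d and Eef1g rose by 0.88 and 0.87 on the log2 scale, and Rgcc, a cell cycle regulator, fell by 1.71. Of 27 other initiation and elongation factors Eif3i rose (0.58), Eif1ax (-0.65) and Eef1a2 fell, and the median was 0.06. That is 3.70% higher and 7.41% lower. Without 1 of the pools limma called 0 of either list higher and 0 or 1 lower. Among 16 growth regulators of ribosome production 2 rose, the kinase Akt1 (0.70) and Mxd4 (0.68), a partner of Max that opposes Myc, and 0 fell, while 0 were called with any 1 pool left out. The 2 are 12.5% of the list, near the 8.72% of all genes, and its median was 0.05. Myc, a transcription factor that drives ribosome production, was at 0.15 ± 0.17 SE (adjusted p = 0.608), and Mtor, the kinase that controls the translation of these messages, at 0.03 ± 0.16 SE (adjusted p = 0.943).

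**Figure D5:**
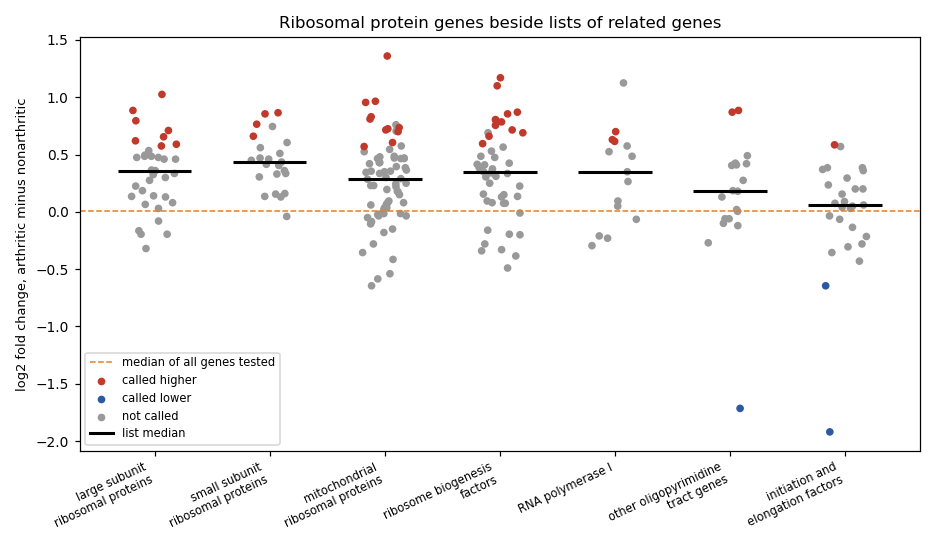
Log2 fold change (vertical axis) of each gene of the core large and small subunit lists and of 5 lists of related genes, with list medians as black bars, calls in red (higher) and blue (lower) and the median of all genes as a dashed line. The medians run from 0.43 for the small subunit to 0.06 for initiation and elongation factors.

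Markers of cell types and of the cell cycle differed between the groups. Beside the 16 muscle genes, all 9 measured adipocyte genes fell (median -2.55), all 10 neutrophil genes rose (median 3.23) and 10 of 11 cell cycle genes rose (median 1.65). The mean log2 signal of the neutrophil genes was 7.80 and 7.11 in nonarthritic pools 1 and 2 and 10.6 and 10.8 in arthritic pools 1 and 2, and that of the cell cycle genes was 8.44 and 8.15, then 9.80 and 10.1. Both means were higher in nonarthritic pool 1 than in pool 2 and higher in arthritic pool 2 than in pool 1, the order that most ribosomal protein genes showed. Of 10 macrophage and monocyte genes 5 rose and 0 fell, and of 7 T and B cell genes 0 rose and 2 fell. Of the 13 synovial fibroblast genes, used to check the tissue, 6 rose and 3 fell, and lubricin, Prg4, read 13.27 to 13.66 on all arrays. In pooled tissue, a change in cell numbers and a change in RNA per cell cannot be told apart for any of these lists. The part of these cell types in the ribosomal protein values was not tested.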

How the data were processed

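The authors deposited 1 log2 signal for each probe set of an Affymetrix mouse gene array. RMA, Affymetrix Power Tools and Affymetrix Expression Console were used, per the submitters' processing notes; versions and options are not stated there. That the scale is log2 was read from the range of the deposited values, 2.89 to 14.27, and 500 ng of RNA was labelled per array, per the labels' protocols. Array medians ran from 6.96 to 7.15. No detection calls were used, and the number of arrays limits the precision.

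Of 41345 probe sets, 23521 had 1 gene symbol, 1814 several and 16010 none; only the first were named, and each gene took its probe set with the highest mean. All 69 symbols matched RefSeq (GRCm38.p6) by gene number. Groups were compared with limma 3.58.1 (lmFit and eBayes, constant prior, 2 residual and 5.98 prior degrees of freedom, 2-sided, no block) in R 4.3.3, with Benjamini-Hochberg adjustment over 22180 genes and a call at adjusted p under 0.05. The code was tested on simulated data. Errors of fold changes are SE, and intervals are 95% from limma's SE and total degrees of freedom.

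The members, lists and rules were chosen with earlier results of these data known, and no list was tested as a whole. Named members were those called, the 6 highest and 6 lowest fold changes, the 3 highest and 3 lowest signals, the P stalk, 5S and paralogue groups with parents, those with a probe set more than 0.5 from the brightest, and the 5 widest pool gaps; other members stand as examples of a list. Alternatives were the mean of probe sets, a filter on dim genes (mean at most 1 above the olfactory receptor median), median centring, quantile normalization again, an intensity trend, the pool number as a block, each pool left out, and, added later, bright genes alone and core genes alone. Signal classes were also chosen after the data were seen.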

Additional observations from a re-analysis of the deposited data

How the results depend on the processing

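The median fold change of the 69 genes stayed above 0 under every alternative, from 0.30 without arthritic pool 2 to 0.50 with centred arrays. In the 14 called genes the groups do not overlap, so leaving out 1 pool cannot turn their direction. The intensity trend, the block and the filters leave the fold changes as they were. Under the mean of probe sets, centring and quantile normalization again, which could turn it, none of the 14 changed direction. Of 149 values of those 14 genes under the alternatives, 74 kept the call and 75 lost it. The count of rises is given with the share of all genes called higher in the same fit. It was 16 with centred arrays (10.4%, where all genes had a median of 0.1) and 16 with the dim-gene filter (12.3%). It was 19 with an intensity trend (9.59%). With the mean of probe sets it was 11 (8.56%) and with quantile normalization again 11 (9.41%). Each time 9 of the 13 were kept, with Rpl13, Rpl32, Rps3 and Rps19 lost under the latter. With only genes of signal 10 or more, which some members reached only through arthritic pools, the count of rises was 20 (24.9%) and 0 fell. It was 0 to 0 with 1 pool left out, and the count of falls 0 to 1; 0 fell among core genes alone. Calls over all genes were then 152 to 1221. Among the 110 probe sets, the count called higher was 4 with an intensity trend, and 0 under the other alternatives as in the fit without them.

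Same-numbered pools share only a number, since 2 pairs cannot show a pairing (correlation of deviations 0.18). With the pool number as a replicate block, 1 member (Rpsa) was called higher and 1 (Rpl3l) lower, and 2243 of all genes were called; the cause was not tested, and the block leaves 1 residual degree of freedom.

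Values near 0 changed sign. Rps6 was at 0.055 with centred arrays and 0.0119 with quantile normalization again, Rpl22l1 at 0.0088 with the latter, and Rpl21 at 0.1 with the mean of probe sets. With 1 pool left out, Rps6 ran from -0.115 to 0.035, Rpl6 from -0.48 to 0.09, Rpl11 from -0.03 to 0.4, Rpl39l from -0.115 to 0.235, Rpl41 from -0.06 to 0.12 and Rps16 from -0.13 to 0.45. None of these genes was called.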

Other observations

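Probe sets that name several genes were not used above. Of these, 57 name at least 1 symbol of the ribosomal protein family, among them the only probe sets of 14 family members, such as those shared with a pseudogene. Their median log2 fold change was 0.34, beside -0.04 over all probe sets, and 43 of the 57 lay above 0. By limma over all probe sets 0 were called higher and 0 lower, against 1.66% and 1.89% of all probe sets. At an unadjusted limma p under 0.05, 17 were higher, as were 10.5% of all probe sets.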
